A study of Mus musculus with 28 samples.

Results

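S100a8 and S100a9 encode the subunits of calprotectin and were taken by name from the gene count tables of sorted mouse epidermal cells, as 2 of the 47729 gene IDs counted. S100a8 is ENSMUSG00000056054.9, on chromosome 3 from 90669071 to 90670034 of GRCm38 (mm10), and S100a9 is ENSMUSG00000056071.12, on chromosome 3 from 90692630 to 90695721; the 2 gene spans lie 22595 bases apart. The cells came from the skin of C57BL/6 mice labelled female and were sorted for integrin α6, integrin β1 and Sca1 and for the absence of CD34, markers of the basal interfollicular epidermis. From postnatal day 60 the skin received imiquimod cream, a Toll-like receptor 7 agonist used to raise psoriasis-like inflammation, or vanicream as the control, for 6 days. Of the 28 samples, 16 RNA-seq libraries in 8 groups of 2 libraries each were used, and 12 ATAC-seq samples were not analysed here. The groups were imiquimod and control at the end of treatment (day 6), post-imiquimod and control 30 days after treatment (day 30), and post-imiquimod and control 6 h and 12 h after full-thickness wounds made at day 30. The labels do not say whether the 2 libraries of a group came from separate mice, so p-values measure the spread between these libraries, which may be technical. At day 30 the 2 libraries of each group differed in Xist and Y-linked reads, given below, so the spread there was not technical alone.

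Calprotectin is a calcium-binding heterodimer of the 2 S100 proteins. It withholds zinc and manganese from microbes and, once released, acts as an alarmin through Toll-like receptor 4 and the receptor for advanced glycation end products. Neutrophils and monocytes carry it in bulk, and keratinocytes, which hold little of it in resting skin, produce it in wounds and in psoriatic plaques.

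The region just before each annotated start is shown because both genes moved together across the groups described below. The 250 bases upstream of S100a8, chr3:90668821-90669070 on the plus strand, and of S100a9, chr3:90695722-90695971 on the minus strand, are from RefSeq, build GRCm38.p6, and run 5′ to 3′; capitals mark the only motif match in each.
S100a8: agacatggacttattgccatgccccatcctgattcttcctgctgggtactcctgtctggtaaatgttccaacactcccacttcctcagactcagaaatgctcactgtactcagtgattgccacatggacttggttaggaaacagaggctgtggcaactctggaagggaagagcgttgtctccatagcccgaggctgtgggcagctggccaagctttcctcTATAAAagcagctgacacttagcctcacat
S100a9: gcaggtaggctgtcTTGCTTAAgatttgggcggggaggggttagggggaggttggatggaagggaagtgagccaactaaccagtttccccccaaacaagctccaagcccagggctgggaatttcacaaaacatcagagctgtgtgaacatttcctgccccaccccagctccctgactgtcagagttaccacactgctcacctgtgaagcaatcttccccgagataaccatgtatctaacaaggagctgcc
Short patterns were searched on both strands of these windows and of the same 250 bases of all 32851 RefSeq gene starts. The TATA box TATAAA lay 30 to 25 bases before the start of S100a8, and 12.4% of all windows held it. No TATAAA lay upstream of S100a9, where the letters TATAAA begin at base 1 of the annotated transcript instead. The C/EBP pattern TTGCNNAA, held by 9.56% of windows, lay 236 to 229 bases before the start of S100a9 and was not found before S100a8. Neither window held the AP-1 pattern TGANTCA (6.75% of windows), the STAT pattern TTCNNNGAA (7.02%) or the NF-kB pattern GGGNNNNNCC (45.8%). These matches describe letters in a window and say nothing of binding.

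Library totals ran from 23623968 to 76993427 counts, and levels are given as CPM, a gene's counts divided by its library's total and multiplied by the same constant throughout. Both day 30 libraries numbered 1, 1 post-imiquimod and 1 control, carry the female label but had at most 1 Xist read each, with 6023 Y-linked reads in the post-imiquimod library and 7830 in the control library; each of the other 14 had at most 2 Y-linked reads. Results that rest on day 30 are therefore also given without these 2 libraries where that changed a call or a direction. Summed counts of 8 basal epidermal markers, Krt5, Krt14, Itga6, Itgb1, Ly6a, Trp63, Col17a1 and Dst, were between 40590 and 67210 CPM in every library. Single markers did move: by the edgeR test used below, 1 of the 8 rose and 3 fell with imiquimod at day 6. That test was passed by 36.6% of all genes.

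At the end of treatment, both genes were among the most increased in the epidermal cells. S100a8 stood at 1456 and 1886 CPM in imiquimod libraries 1 and 2, against 1.15 and 0.929 CPM in control libraries 1 and 2. S100a9 stood at 2104 and 2891 CPM in imiquimod libraries and at 1.41 and 1.17 CPM in control libraries. Both imiquimod libraries lay far above both control libraries, by 1265-fold and 2029-fold for S100a8 and by 1489-fold and 2470-fold for S100a9 between libraries of the same number. Of all genes tested, 29.9% were higher with imiquimod without overlap, by any fold. The control values rest on 57 and 27 reads of S100a8 and 70 and 34 reads of S100a9. By edgeR's quasi-likelihood test, S100a8 rose by 10.85 ± 1.45 on the log2 scale (SE; Benjamini-Hochberg adjusted p = 0.00043) and S100a9 by 11.13 ± 1.59 (adjusted p = 0.000611). These were the fifth and the third largest increases among 17299 genes tested, of which 36.6% passed the test and 21.6% rose. In these bulk samples, more cells that express a gene and more RNA per cell cannot be told apart.

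**Figure D1:**
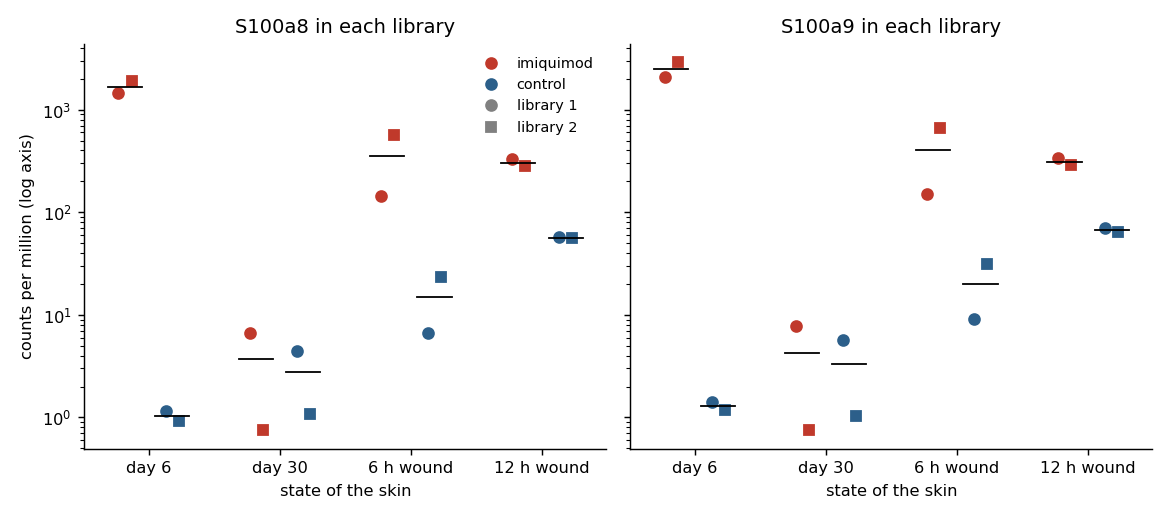
CPM of S100a8 (left) and S100a9 (right) in each of the 16 libraries on a log axis, by state of the skin, with imiquimod or post-imiquimod libraries in red to the left of control libraries in blue; circles are library 1, squares library 2 and bars the group mean. The day 6 imiquimod libraries lie highest (1456 and 1886 CPM of S100a8), the day 30 libraries lie at 7.70 CPM or below, and post-imiquimod wounds lie above control wounds at 6 h and at 12 h.

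At 30 days after treatment the 2 genes stood near the level of control skin. S100a8 stood at 6.60 and 0.747 CPM in post-imiquimod libraries 1 and 2, against 4.47 and 1.08 CPM in control libraries 1 and 2. S100a9 stood at 7.70 and 0.747 CPM in post-imiquimod libraries and at 5.68 and 1.02 CPM in control libraries. The groups overlapped, and library 1 was above library 2 in both of them, by 8.84-fold and 4.15-fold for S100a8. The post-imiquimod means were 0.220% of the day 6 imiquimod mean for S100a8 and 0.169% for S100a9. Log2 changes were 0.36 ± 1.12 for S100a8 and 0.28 ± 1.18 for S100a9 (SE; adjusted p = 1 for both), and 0.0116% of genes tested passed. The direction was not settled: without both libraries that held Y-linked reads, the changes were -0.59 and -0.52. The imiquimod effect at day 6 exceeded that at day 30 by 10.50 ± 1.71 for S100a8 (adjusted p = 0.00302) and by 10.84 ± 1.84 for S100a9 (adjusted p = 0.00364), a test that 22.5% of genes passed.

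In 6 h wounds the genes were higher in both post-imiquimod libraries than in both control libraries. S100a8 stood at 143 and 569 CPM in post-imiquimod wound libraries 1 and 2, against 6.66 and 23.5 CPM in control wound libraries 1 and 2. S100a9 stood at 151 and 666 CPM in post-imiquimod wounds and at 9.01 and 31.0 CPM in control wounds. The groups did not overlap, which held in this direction for 16.6% of genes tested, and in both groups library 2 was above library 1, by 3.97-fold and 3.52-fold for S100a8. Post-imiquimod wounds reached 21.3% of the day 6 imiquimod mean of S100a8 and 16.3% of that of S100a9, while control wounds reached 0.901% and 0.801%. The log2 changes of 4.61 ± 1.09 for S100a8 and 4.40 ± 1.17 for S100a9 were the seventh and the ninth largest increases of all genes tested but missed the threshold (SE; adjusted p = 0.339 and 0.428); 0.0347% of genes passed. Leaving out 1 library moved them to between 3.21, without post-imiquimod library 2, and 5.85, without control library 2, for S100a8, and to 2.87 and 5.62 without the same libraries for S100a9. Exact permutation of 2 libraries against 2 cannot give a two-sided p below 0.333.

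Within a time point, libraries with the same replicate number deviated together across genes, and the same comparison was therefore also made within numbers. Among libraries numbered 1, S100a8 was 21.5-fold higher in the post-imiquimod than in the control wound, and among those numbered 2 it was 24.2-fold higher. The folds of S100a9 were 16.7 and 21.5. With the replicate number as a block, edgeR's log2 change at 6 h was 4.55 ± 0.22 for S100a8 and 4.28 ± 0.22 for S100a9, and both passed (adjusted p = 0.000138 for each), as did 0.162% of genes. S100a8 and S100a9 then had the smallest and the second smallest p of all genes tested. The pairing is inferred from these same data, since the labels do not say what a number shares. The fit with the block has 4 residual degrees of freedom. Over the alternatives other than the unfiltered fit, the adjusted p of either gene ran from 0.000138 to 1. The biological coefficient of variation that edgeR gave S100a8 was 67.6% without the block, above that of 96.8% of genes, and 13.6% with it; for S100a9 it was 72.1% and 14.3%.

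In 12 h wounds the post-imiquimod libraries were again the higher ones, by a smaller fold. S100a8 stood at 327 and 283 CPM in post-imiquimod wound libraries 1 and 2, against 57.0 and 56.3 CPM in control wound libraries 1 and 2. S100a9 stood at 336 and 286 CPM in post-imiquimod wounds and at 70.0 and 64.4 CPM in control wounds. The groups did not overlap, as in 13% of genes in this direction, and the 2 libraries of a group differed by at most 1.18-fold. Log2 changes of 2.49 ± 0.98 for S100a8 and 2.27 ± 1.06 for S100a9 did not pass edgeR's test (SE; adjusted p = 1 for both); 0% of genes passed, 425 genes had an unadjusted p under 0.05, and DESeq2 called 27. With the replicate block the changes were 2.49 ± 0.20 and 2.27 ± 0.20, and both passed (adjusted p = 0.0087 for each), with 0.116% of genes. Over the alternatives other than the unfiltered fit, the adjusted p ran from 0.00384 to 1 for S100a8 and from 0.00565 to 1 for S100a9. Whether the effect of earlier imiquimod differed between 6 h and 12 h was not tested.

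**Figure D2:**
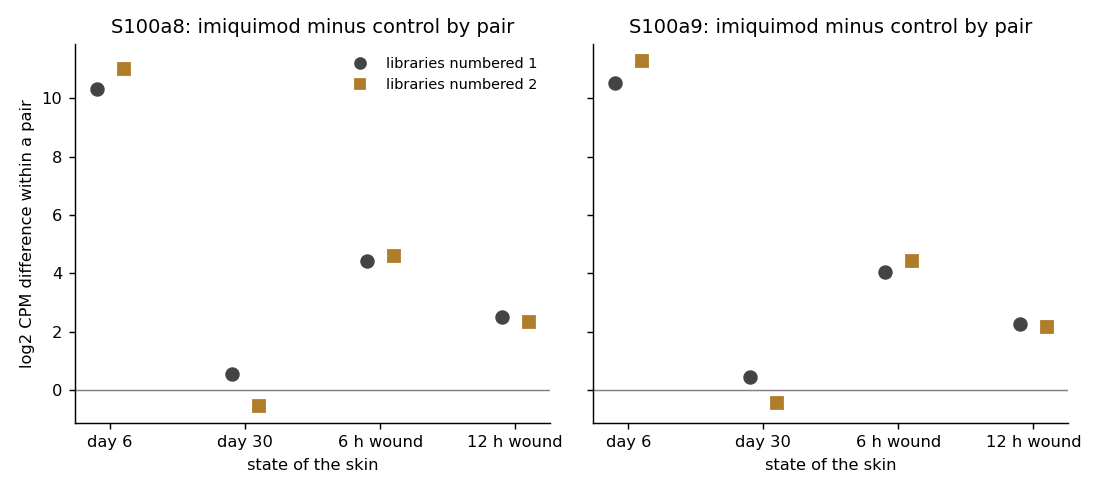
Log2 CPM difference of imiquimod or post-imiquimod minus control between libraries of the same replicate number, for S100a8 (left) and S100a9 (right) at each state of the skin; circles are libraries numbered 1, squares those numbered 2, and the line marks 0. For S100a8 the pairs stood at 10.31 and 10.99 at day 6, 0.56 and -0.53 at day 30, 4.43 and 4.60 in 6 h wounds and 2.52 and 2.33 in 12 h wounds.

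Averaged over day 30, 6 h and 12 h, the log2 change of post-imiquimod against control was 2.49 ± 0.60 for S100a8 (adjusted p = 0.279) and 2.32 ± 0.64 for S100a9 (adjusted p = 0.377), and 0.202% of genes passed edgeR's test. Leaving out 1 library moved S100a8 to between 1.72 and 2.94 and S100a9 to between 1.48 and 2.89, both lowest without post-imiquimod day 30 library 1. With the replicate block it was 2.39 ± 0.13 (adjusted p = 0.000191) and 2.21 ± 0.13 (adjusted p = 0.000233), and 0.607% of genes passed. The adjusted p of S100a8 ran from 0.000191 to 0.877 over the alternatives other than the unfiltered fit, and that of S100a9 from 0.000233 to 1. Exchanging treatment labels within each wound time gave an exact two-sided permutation p of 0.0556 for each gene over 6 h and 12 h, the smallest this design can give. Over day 30, 6 h and 12 h, the states averaged above, the exact permutation p was 0.0648 for S100a8 and 0.0833 for S100a9 (smallest possible 0.00926). Over all 4 states, which adds day 6 at the end of treatment, the exact p was 0.0108 for S100a8 and 0.0139 for S100a9, where the smallest possible is 0.00154.

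In control skin both genes were higher 12 h after wounding than in unwounded skin. Against control skin at day 30, 6 h control wounds gave log2 changes of 2.35 ± 1.07 for S100a8 and 2.49 ± 1.15 for S100a9 that did not pass edgeR's test (SE; adjusted p = 0.12 and 0.124), although both wound libraries lay above both unwounded ones, as in 39.3% of genes; 34.7% of genes passed. With 1 library left out they ran from 1.12 and 1.28, without 6 h control library 2, to 3.71 and 4.20, without day 30 control library 1. The changes were 3.68 (adjusted p = 0.0398) and 4.17 (adjusted p = 0.0304) without both day 30 libraries that held Y-linked reads; over all alternatives but the unfiltered fit p ran from 8.53e-05 to 0.566 for S100a8 and from 4.86e-05 to 0.547 for S100a9. At 12 h, S100a8 rose by 4.20 ± 1.12 (adjusted p = 0.0196) and S100a9 by 4.17 ± 1.21 (adjusted p = 0.0275), and 30.8% of genes passed. This call was lost without day 30 control library 2 (adjusted p = 0.108 and 0.129), without 12 h control library 1 (0.0675 and 0.0901) or without 12 h control library 2 (0.0696 and 0.0864). The 12 h control wounds did not pass against the 6 h control wounds, with changes of 1.85 ± 0.98 and 1.68 ± 1.05 (adjusted p = 0.455 and 0.539; 0.647% of genes passed).

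In post-imiquimod skin both genes were higher at 6 h and 12 h after wounding than before it. S100a8 rose by 6.61 ± 1.22 (adjusted p = 0.00236) and S100a9 by 6.60 ± 1.32 (adjusted p = 0.00367) in 6 h wounds against unwounded post-imiquimod skin, a test that 38.7% of genes passed. When only these 2 groups entered the fit, the adjusted p was 0.0832 and 0.0938. At 12 h the increases were 6.33 ± 1.21 (adjusted p = 0.00296) and 6.15 ± 1.30 (adjusted p = 0.00508), with 37.6% of genes passing. The size at 6 h depended on single libraries: for S100a8 it was 8.91 and 5.69 without post-imiquimod day 30 libraries 1 and 2, and 7.31 and 5.19 without post-imiquimod 6 h libraries 1 and 2, and it passed in all 4 cases. At 12 h it ran from 5.41 to 8.63 for S100a8 and from 5.22 to 8.66 for S100a9 with 1 library left out, and passed each time. Set against 6 h, 12 h post-imiquimod wounds had changes of -0.28 ± 0.93 for S100a8 and -0.45 ± 1.01 for S100a9 (adjusted p = 0.96 and 0.938; 0.173% of genes passed), and the groups overlapped. Their sign turned without post-imiquimod 6 h library 2, to 1.12 for S100a8 and 1.08 for S100a9.

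The 6 h wound response was 4.26 ± 1.50 larger on the log2 scale in post-imiquimod than in control skin for S100a8 and 4.12 ± 1.60 larger for S100a9, which did not pass edgeR's test (SE; adjusted p = 0.738 and 0.771). No gene passed it, 1057 had an unadjusted p under 0.05 and DESeq2 called 27. With the replicate block the differences were 4.42 ± 0.33 and 4.20 ± 0.33 and both genes passed (adjusted p = 0.00538 for each), as did 0.0173% of genes, or 3 in all; over the alternatives other than the unfiltered fit p ran from 0.00538 to 1. Leaving out 1 library moved the unblocked differences to between 2.83 (without post-imiquimod 6 h library 2) and 6.55 (without post-imiquimod day 30 library 1) for S100a8, and to between 2.39 (without day 30 control library 1) and 6.61 (without post-imiquimod day 30 library 1) for S100a9. At 12 h the differences were 2.13 ± 1.47 and 1.99 ± 1.57 (adjusted p = 1 for both) and 2.35 and 2.18 with the block (adjusted p = 0.335 for each). No gene passed at 12 h in either of these fits, 503 had an unadjusted p under 0.05, and DESeq2 called 1. The unblocked 12 h differences fell to 0.76 and 0.26 without day 30 control library 1, and were 4.42 and 4.48 without post-imiquimod day 30 library 1. These wound comparisons share the day 30 libraries. Against the 12 h wound response of control skin, the day 6 imiquimod effect was larger by 6.65 ± 1.59 for S100a8 (adjusted p = 0.0289) and by 6.96 ± 1.70 for S100a9 (adjusted p = 0.0313), with 11.2% of genes passing. The call was lost without both day 30 libraries with Y-linked reads, where the adjusted p was 0.0546 and 0.0622. It was also lost, at adjusted p of 0.0728 to 0.147, without day 6 control library 1 or 2, day 6 imiquimod library 2, day 30 control library 1, or 12 h control library 1 or 2.

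**Figure D3:**
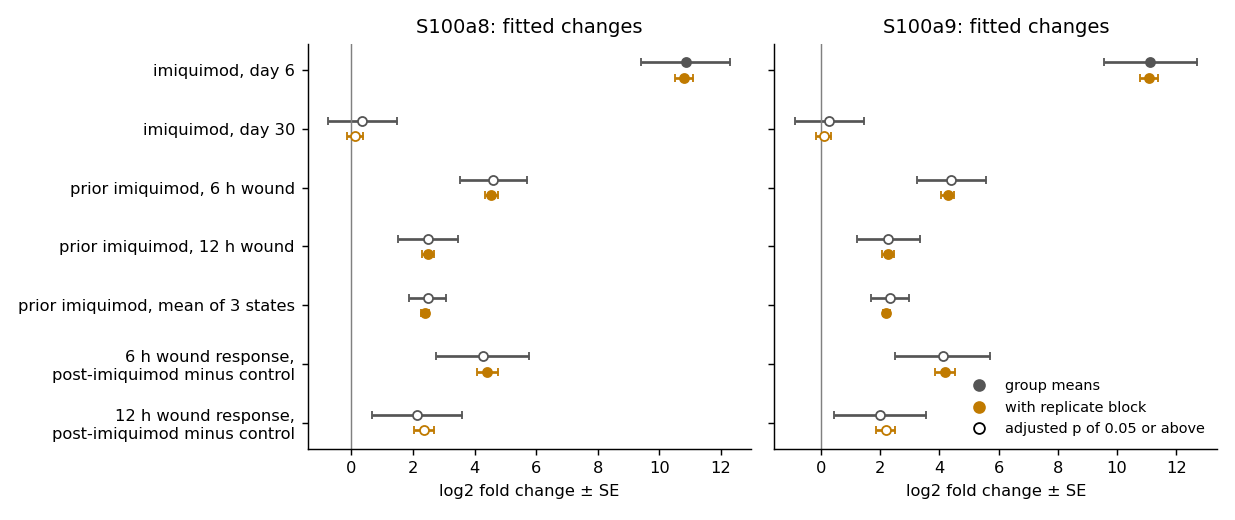
Log2 fold change ± SE of S100a8 (left) and S100a9 (right) for 7 comparisons, with edgeR fits of group means in grey and fits with the replicate block in orange; filled points have an adjusted p under 0.05. The estimates of the 2 fits lie close together, as at 6 h (4.61 and 4.55 for S100a8), while the SE is smaller with the block (1.09 and 0.22).

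Ordered by mean level, both genes gave the same sequence of groups. For S100a8 it ran from day 6 imiquimod at 1671 ± 304 CPM through 6 h post-imiquimod wounds at 356 ± 301 CPM, 12 h post-imiquimod wounds at 305 ± 30.8 CPM, 12 h control wounds at 56.6 ± 0.505 CPM and 6 h control wounds at 15.1 ± 11.9 CPM to post-imiquimod day 30 at 3.68 ± 4.14 CPM, control day 30 at 2.77 ± 2.40 CPM and control day 6 at 1.04 ± 0.156 CPM (SD, n = 2 libraries). For S100a9 the highest and lowest groups were day 6 imiquimod at 2498 ± 556 CPM and day 6 control at 1.29 ± 0.172 CPM. Neighbours that overlapped were the 2 post-imiquimod wound times, and the 3 lowest groups among themselves. All other neighbouring groups in this order, itself taken from these means, had no overlap between their libraries, for either gene. For S100a8 the 6 h control wounds reached down to 6.66 CPM and the post-imiquimod day 30 libraries up to 6.60 CPM. Of all genes tested, 13% were higher without overlap in post-imiquimod than in control wounds at 12 h. The share was 31.6% for 12 h above 6 h control wounds, and it was not computed for the other neighbours.

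The counts of the 2 subunits kept a ratio between 0.652 and 1.05 in all 16 libraries, across the whole range of their levels. Transcript lengths were not used, so the ratio of S100a8 to S100a9 counts is read for its differences between libraries and not as a ratio of molecules. At day 6 it was 0.692 and 0.652 in imiquimod libraries, against 0.814 and 0.794 in control libraries, whose exact 95% intervals (Clopper-Pearson, for counting error alone) ran from 0.564 to 1.17 and from 0.461 to 1.36. At day 30 it was 0.857 and 1.00 in post-imiquimod libraries and 0.787 and 1.05 in control libraries, on as few as 22 reads of each gene. In 6 h wounds it was 0.951 and 0.855 in post-imiquimod libraries and 0.739 and 0.757 in control libraries. In 12 h wounds it was 0.972 and 0.992 in post-imiquimod libraries and 0.814 and 0.873 in control libraries. The ratio was thus lower with imiquimod in both pairs of day 6 and higher after imiquimod in all 4 pairs of wounds. Over the 4 states the mean log2 difference of imiquimod minus control was 0.063 (exact two-sided permutation within states, p = 0.448, smallest possible 0.00154). Over the wounds alone, a choice made after these values were seen, it was 0.24 (exact p = 0.0556, the smallest possible). Wounded against unwounded libraries at day 30 and after differed by -0.09 (exact p = 0.396). The interval of day 6 imiquimod library 2, 0.646 to 0.659, lay below that of 12 h post-imiquimod library 2, 0.972 to 1.01, so counting error does not span the whole range of the ratio.

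**Figure D4:**
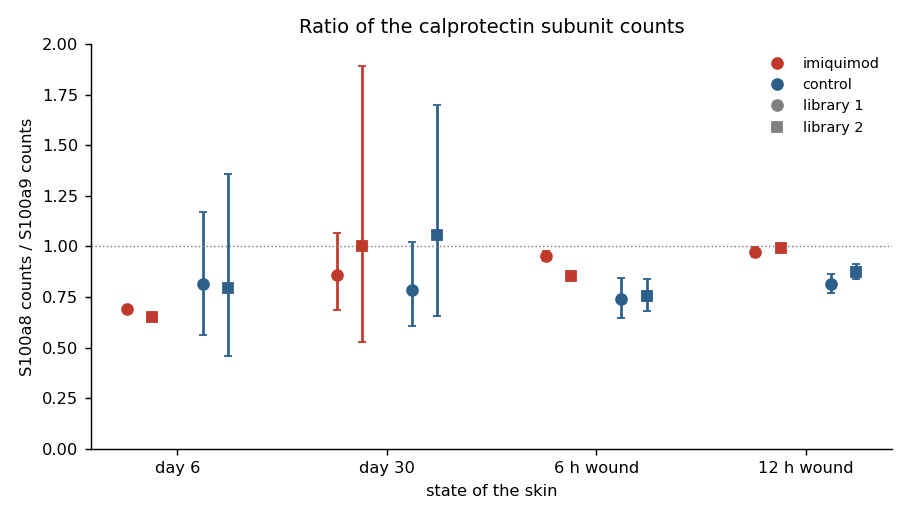
Ratio of S100a8 to S100a9 counts in each library with its exact 95% interval for counting error, by state of the skin; imiquimod or post-imiquimod is red and left of control in blue, circles are library 1 and squares library 2. The day 6 imiquimod libraries (0.692 and 0.652) lie lowest and the 12 h post-imiquimod libraries (0.972 and 0.992) lie near 1, while intervals are widest in the day 6 control libraries and in the day 30 libraries numbered 2.

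With imiquimod at day 6, receptors of calprotectin moved far less than its subunits. Of 10 genes for receptors and their adaptors, all of them tested, 2 rose and 1 fell with imiquimod at day 6, with a list median of 0.26 on the log2 scale beside 0.10 for all genes tested; these 3 of 10 stand beside 36.6% of all genes that passed at day 6 in either direction. Cd14, a co-receptor of Toll-like receptor 4, rose by 1.97 ± 0.36 (adjusted p = 0.00102) and Bsg, which encodes basigin, an S100A9 receptor, by 0.73 ± 0.21 (adjusted p = 0.0174). Mcam, an adhesion molecule that binds calprotectin, fell by 2.17 ± 0.26 (adjusted p = 7e-05). Tlr4 changed by 1.96 ± 0.76 (adjusted p = 0.0598) and Ager, the receptor for advanced glycation end products, by -0.13 ± 0.50 (adjusted p = 0.862), neither past the test. In wounds Mcam went the other way than at day 6: it rose by 2.94 ± 0.27 in 6 h control wounds (adjusted p = 1.71e-05) and by 1.36 ± 0.26 in 6 h post-imiquimod wounds (adjusted p = 0.00118), each against its own day 30 skin. Cd14 rose in post-imiquimod skin at 6 h (1.12 ± 0.37, adjusted p = 0.0292) and 12 h (1.54 ± 0.37, adjusted p = 0.00565). No gene of the 10 passed between post-imiquimod and control at day 30, 6 h or 12 h, where 0.0116%, 0.0347% and 0% of all genes passed, so the count says nothing particular of these 10.

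Cytokine receptors that act ahead of S100 genes in keratinocytes went in both directions at day 6. Of 13 such genes 12 were tested, and 2 rose and 3 fell, with a list median of -0.19 beside 0.10 for all genes; 36.6% of all genes passed. Il22ra1, a subunit of the interleukin-22 receptor, rose by 2.40 ± 0.59 (adjusted p = 0.00824) and its partner Il10rb by 0.68 ± 0.22 (adjusted p = 0.0287). Il6ra fell by 1.73 ± 0.33 (adjusted p = 0.00177), Il1r1 by 1.11 ± 0.22 (adjusted p = 0.00185) and Il6st, the shared gp130 subunit, by 0.75 ± 0.22 (adjusted p = 0.0174). The interleukin-17 receptor genes Il17ra and Il17rc changed by -0.28 ± 0.15 and 0.15 ± 0.17 and did not pass (adjusted p = 0.149 and 0.537). In 6 h control wounds against day 30, 3 rose and 3 fell, where 34.7% of all genes passed. Among them Osmr, the oncostatin M receptor, rose by 0.74 ± 0.20 (adjusted p = 0.0116), and Il1rap, the accessory chain of the interleukin-1 receptor, fell by 1.39 ± 0.21 (adjusted p = 0.000362). None passed between post-imiquimod and control at day 30, 6 h or 12 h, where at most 0.0347% of all genes did.

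Of 15 transcription factors reported at the S100a8 and S100a9 genes, 5 rose and 3 fell with imiquimod at day 6, with a list median of -0.02 beside 0.10 for all genes; 21.6% of all genes rose and 36.6% passed in either direction. The C/EBP factors Cebpb and Cebpd rose by 2.38 ± 0.52 (adjusted p = 0.00496) and 1.90 ± 0.64 (adjusted p = 0.0398). Hif1a, the hypoxia-inducible factor, rose by 1.23 ± 0.27 (adjusted p = 0.00381), Stat3 by 0.65 ± 0.18 (adjusted p = 0.0145) and Nfkb1 by 0.45 ± 0.15 (adjusted p = 0.0313). The AP-1 genes Fos and Jun fell by 1.72 ± 0.32 (adjusted p = 0.00125) and 1.54 ± 0.35 (adjusted p = 0.00437), and Relb fell by 1.19 ± 0.24 (adjusted p = 0.00212). In 6 h control wounds against day 30, 3 rose and 3 fell, beside 34.7% of all genes. Of these, Stat3 rose by 1.02 ± 0.18 (adjusted p = 0.00119), Hif1a by 1.47 ± 0.28 (adjusted p = 0.00145) and Nfkb1 by 0.46 ± 0.15 (adjusted p = 0.0285), while Fos fell by 1.50 ± 0.32 (adjusted p = 0.00334). Between post-imiquimod and control wounds at 6 h, where 0.0347% of all genes passed, none of the 15 did, and none passed with the replicate block, where 0.162% did. Of the C/EBP factors and Stat3 in these wounds, some stood higher and some lower after imiquimod. Cebpa stood at 196.5 to 229 CPM in post-imiquimod and 171 to 175 CPM in control libraries, without overlap (0.34 ± 0.47, adjusted p = 1). Cebpd stood at 98.7 ± 37.8 CPM in post-imiquimod and 71.6 ± 18.1 CPM in control wounds, Cebpb at 67.5 ± 19.8 and 72.5 ± 16.7 CPM, and Stat3 at 907 ± 91.4 and 981 ± 192 CPM (SD, n = 2), with overlap in each case. Cebpg stood at 137 to 146 CPM in post-imiquimod and 149 to 156.5 CPM in control libraries, lower without overlap. Of all genes tested, 16.6% were higher without overlap in these wounds, and the share that was lower was not computed. In 12 h wounds, with the replicate block, Cebpd changed by 1.05 ± 0.18 after imiquimod (SE, edgeR adjusted p = 0.142). Cebpb changed by 0.31 ± 0.11, Stat3 by 0.22 ± 0.11, Cebpa by 0.03 ± 0.21 and Cebpg by -0.05 ± 0.09. None of the 15 passed there, where 0.116% of all genes did.

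Genes of the NADPH oxidase, whose assembly in phagocytes calprotectin assists, were all tested, and 3 of 6 rose at day 6, with a list median of 1.72 beside 0.10 for all genes, of which 21.6% rose. Rac2, Cybb and Cyba rose by 4.15 ± 0.89 (adjusted p = 0.00339), 4.12 ± 0.88 (adjusted p = 0.00393) and 1.97 ± 0.65 (adjusted p = 0.0293). Their summed level was 7.11 to 8.28 CPM in imiquimod libraries and 1.41 to 2.04 CPM in control libraries. In 6 h wounds the sum was 0.442 to 0.448 CPM in post-imiquimod and 0.325 to 0.896 CPM in control libraries, and no member passed, where 0.0347% of all genes did.

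Because neutrophils and monocytes carry the same 2 mRNAs, markers of other cells were read beside each difference. Of 18 neutrophil markers, Elane, neutrophil elastase, was at 0 in all 16 libraries and Ly6g was at 0 at day 6 and day 30 and at most 0.109 CPM in wounds. The whole list summed to 24.8 to 61.7 CPM in day 6 imiquimod libraries, against 199 to 217 CPM in day 6 control libraries. In wounds it was higher after imiquimod, at 218.5 to 241 CPM in post-imiquimod and 146 to 175 CPM in control libraries at 6 h, and at 304.5 to 394 CPM and 250 to 266 CPM at 12 h. The wound sums did not overlap, and S100a8 and S100a9 together held 294 to 1235 CPM in post-imiquimod and 15.7 to 54.5 CPM in control libraries at 6 h.

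Cxcr2, Mmp9 and Il1r2 held most counts of the neutrophil list in every library. Cxcr2, a chemokine receptor of neutrophils, stood at 171.5 and 173.4 CPM in post-imiquimod 6 h wound libraries 1 and 2, against 73.2 and 109.8 CPM in control 6 h wound libraries 1 and 2 (log2 change 0.94 ± 0.68, adjusted p = 0.944). Mmp9, which encodes gelatinase B, stood at 9.20 and 5.41 CPM in post-imiquimod and at 2.28 and 2.64 CPM in control 6 h wounds (1.62 ± 0.84, adjusted p = 0.875). Both markers were thus higher in post-imiquimod wounds at 6 h without overlap, as S100a8, S100a9 and 16.6% of all genes tested were. Both were also higher at 12 h without overlap, as 13% of genes were. There Cxcr2 stood at 138.5 to 167 CPM in post-imiquimod and 124 to 125 CPM in control libraries, and Mmp9 at 104 to 236 CPM and 76.2 to 77.0 CPM. Il1r2, a decoy receptor for interleukin-1, stood at 39.3 to 59.55 CPM in post-imiquimod and 33.3 to 98.7 CPM in control 6 h wounds. In 12 h wounds Il1r2 went the other way than Cxcr2 and Mmp9. By edgeR's fit with the replicate block, its log2 change there was -1.14 ± 0.62 (SE, adjusted p = 0.767). Against day 30, Cxcr2 rose in 6 h wounds by 7.26 ± 0.95 in post-imiquimod skin (adjusted p = 0.000318) and by 7.38 ± 1.00 in control skin (adjusted p = 0.000504). Of all genes, 38.7% and 34.7% passed these 2 tests. At day 6, Cxcr2 rose by 3.73 ± 0.81 (adjusted p = 0.00561) and Itgam by 2.94 ± 0.56 (adjusted p = 0.00138), and Il1r2 fell by 3.40 ± 0.82 (adjusted p = 0.00951), among the 5 neutrophil markers that passed the filter on low counts. Of all genes, 36.6% passed at day 6 and 21.6% rose.

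The 15 other neutrophil markers, a subset taken after the levels were seen, were all low. They summed to 3.23 to 4.75 CPM in day 6 imiquimod libraries, against 0.620 to 0.828 CPM in day 6 control libraries. In 6 h wounds they summed to 0.448 to 0.623 CPM in post-imiquimod and 0.542 to 0.808 CPM in control libraries, and in 12 h wounds to 0.811 to 0.820 CPM and 0.667 to 0.839 CPM, with overlap at both times. The whole list and this subset thus differed in direction at day 6, and in 6 h wounds the whole list was higher after imiquimod while the subset overlapped.

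Macrophage and monocyte markers, 12 genes such as Adgre1, C1qb and Lyz2, summed to 74.1 to 79.5 CPM in day 6 imiquimod libraries and 11.2 to 21.0 CPM in control libraries, and 7 of the 11 tested rose, beside 21.6% of all genes. They summed to 5.30 to 6.87 CPM in post-imiquimod and 5.97 to 11.4 CPM in control 6 h wounds, and to 10.6 to 14.6 CPM and 9.99 to 10.2 CPM at 12 h. At day 30 they summed to 1.99 to 2.00 CPM in post-imiquimod and 1.44 to 1.80 CPM in control libraries, so this list was higher in wounds than in unwounded skin. All 6 leukocyte markers, such as Ptprc and Tyrobp, rose at day 6, where 21.6% of all genes did, and their sum was 19.4 to 21.9 CPM in imiquimod and 5.03 to 6.46 CPM in control libraries. In 6 h wounds the leukocyte sum was 1.31 to 1.57 CPM in post-imiquimod and 2.03 to 3.48 CPM in control libraries, and at 12 h 2.05 to 2.88 CPM and 1.87 to 1.92 CPM. No tested gene of these 3 lists passed between post-imiquimod and control wounds at 6 h or 12 h, with or without the replicate block, where at most 0.162% of all genes did. The part of other cells in the differences of S100a8 and S100a9, at day 6 and in wounds, was not tested.

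**Figure D5:**
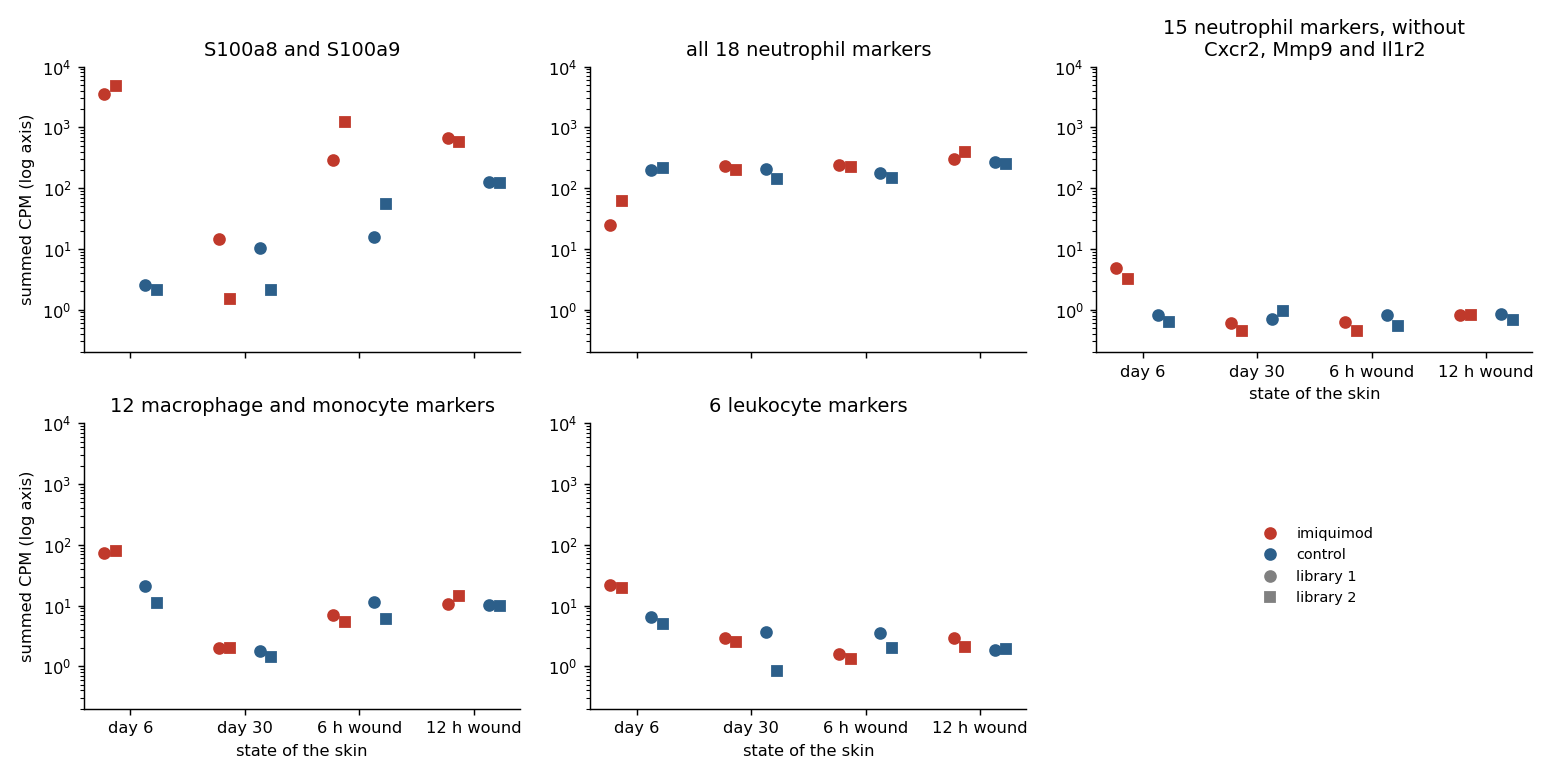
Summed CPM on a log axis of S100a8 and S100a9, of all 18 neutrophil markers, of 15 of them without Cxcr2, Mmp9 and Il1r2, and of macrophage and leukocyte markers in each library; imiquimod or post-imiquimod is red and left of control in blue, circles are library 1 and squares library 2. In 6 h wounds the 18 neutrophil markers sum to 218.5 to 241 CPM in post-imiquimod and 146 to 175 CPM in control libraries, and the subset of 15 to 0.448 to 0.623 CPM and 0.542 to 0.808 CPM.

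Across the 16 libraries, log2 CPM of S100a8 and S100a9 correlated at r = 0.999, a description over libraries that share their groups and normalization. Among 10003 other genes that averaged 2 log2 CPM or more, those most like the mean of the pair were Atp5f1 (0.982), Tomm22 (0.976), Vdac2 (0.976), Gsdmc2 (0.972), Sdhd (0.971), Gk (0.971), Stfa3 (0.968) and Cfl1 (0.966). Most of them moved over a far smaller range than calprotectin: Atp5f1, a subunit of the mitochondrial ATP synthase, averaged 281 CPM in day 6 imiquimod and 127 CPM in day 6 control libraries, and 204 CPM in post-imiquimod and 159 CPM in control 6 h wounds. Stfa3, a stefin that inhibits cysteine proteases, averaged 2520 CPM in day 6 imiquimod and 14.7 CPM in day 6 control libraries, and 292 CPM in post-imiquimod and 102 CPM in control 6 h wounds. Gk, glycerol kinase, averaged 250 CPM in imiquimod and 20.4 CPM in control libraries at day 6, and 155 CPM in post-imiquimod and 67.1 CPM in control wounds at 6 h. Over the 12 libraries of day 30 and of wounds, the closest were Lman2 and Gsdmc2 (0.982 each), Ap2m1 (0.977), Cfl1 (0.976), Timm13 (0.975), Usmg5 (0.974), Atp5f1 (0.974) and Pfn1 (0.973). Gsdmc2, a gasdermin gene, was in both sets and averaged 14.6 CPM in post-imiquimod and 3.12 CPM in control wounds at 6 h, and 1.82 CPM in post-imiquimod and 1.81 CPM in control skin at day 30.

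Within 100000 bases of the pair the annotation lists 12 genes, the pair included, of which 8 are S100 genes, and none overlaps either span. Of the 6 other S100 genes, S100a3, S100a4, S100a6 and S100a7a were tested, and none passed at day 6 or between post-imiquimod and control wounds. Of all genes tested, 36.6% passed at day 6, 0.0347% between wounds at 6 h and 0% at 12 h. The wound counts therefore say nothing particular of these neighbours. S100a6, the most counted neighbour, averaged 584 CPM in imiquimod and 342 CPM in control libraries at day 6 (log2 change 1.00, adjusted p = 0.0938), and 649 CPM in post-imiquimod and 447 CPM in control 6 h wounds (0.58, adjusted p = 0.952). S100a7a, a relative of human psoriasin, averaged 0.275 CPM in imiquimod and 1.02 CPM in control libraries at day 6 (-1.68, adjusted p = 0.0861), and 3.73 CPM in post-imiquimod and 0.883 CPM in control 6 h wounds (2.12, adjusted p = 0.491). Pglyrp4, a peptidoglycan recognition protein gene, averaged 10.1 CPM in imiquimod and 50.7 CPM in control libraries at day 6 and fell by 2.11 on the log2 scale (adjusted p = 0.00323).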

How the data were processed

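RNA from sorted cells went into Illumina TruSeq libraries, per the labels' protocols; that kit in its plain form keeps no strand information. The submitters' processing notes name STAR and the build mm10; no source used here gives the STAR version, the annotation release or which of its count columns was kept. As counts, the authors deposited whole numbers per gene and library, not normalized, and 47224 of 47729 IDs matched a symbol. CPM was computed from library totals. edgeR 4.0.16 in R 4.3.3 (TMM, filterByExpr, robust quasi-likelihood test, Benjamini-Hochberg adjustment over all genes, threshold 0.05) fitted 8 group means over 16 libraries, with 8 residual degrees of freedom, to the 17299 of 30802 genes with a read that passed the filter; both calprotectin genes passed. Libraries of a group differed beyond counting error (chi-square per gene 20.7 to 185).

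Residuals of libraries with the same number correlated at 0.22 to 0.539 within a time point, in all 4 pairs, and at -0.285 to 0.115 between time points. The pairing is inferred from these data, since the labels do not say what a number shares, and a fit with the number as a block within time (4 residual degrees of freedom) is printed where it changed a call. That block pairs libraries within a time point only, so in comparisons between time points it removes spread without pairing anything. Ratios were tested by exact permutation in Python 3.11.15. Alternatives were RLE scaling, DESeq2 1.42.0, no filter, a fit without robust estimation, a fit without the day 6 libraries, the compared groups alone and each library left out; permutation tests of levels and the fit without both day 30 libraries with Y-linked reads were added after seeing the data. Fits were checked on simulated counts. Genes were named by rule: S100a8 and S100a9 in all comparisons, list genes past the threshold with a few others of known role, and the 8 most alike in 2 sets; neighbours and the wound-only ratio were chosen later. The genes and lists were chosen with earlier results of these data known. Reads were not collapsed to molecules, so intervals cover counting error only.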

Additional observations from a re-analysis of the deposited data

Results flagged for a closer look

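The imiquimod effect differed between time points for both genes by edgeR's test of the difference. At day 6 it exceeded that at day 30 by 10.50 for S100a8 and 10.84 for S100a9 on the log2 scale. Each day 6 imiquimod library lay above each day 6 control library, as in 29.9% of genes tested, and the day 30 groups overlapped. The day 6 effect also exceeded the 12 h wound response of control skin, by 6.65 for S100a8 and 6.96 for S100a9. Several left-out libraries ended this last call.

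The ratio of S100a8 to S100a9 counts moved in opposite directions: the mean log2 difference of imiquimod minus control was -0.26 at day 6, with both imiquimod libraries below both controls, 0.27 in 6 h wounds and 0.22 in 12 h wounds, with both post-imiquimod libraries above both controls. At day 6 the imiquimod ratios of 0.692 and 0.652 lay within the 95% counting intervals of both control libraries, 0.564 to 1.17 and 0.461 to 1.36. The difference between these time points was not tested.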

How the results depend on the processing

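Of 430 alternative values of the log2 changes and ratios, 361 kept direction and side of the threshold, 36 newly passed it, 22 no longer passed and 11 turned sign. RLE scaling, a fit without robust estimation and a fit without day 6 libraries changed no call. Values are log2 changes of S100a8 and then S100a9.

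With the replicate block both genes newly passed for post-imiquimod against control wounds at 6 h (4.55 and 4.28) and 12 h (2.49 and 2.27), for the mean of 3 states (2.39 and 2.21) and for the 6 h response difference (4.42 and 4.20). They also passed between time points, where the block pairs nothing, for 6 h control wounds against day 30 (2.43 and 2.71) and 12 h against 6 h control wounds (2.13 and 1.95), and S100a8 turned to 0.068 for 12 h against 6 h post-imiquimod wounds; it changed no other call. For the ratio, sign flips within pairs gave p = 0.453 (exact).

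Without the filter both newly passed at 6 h (4.63 and 4.41) and 12 h (2.49 and 2.27), in 6 h control wounds against day 30 (2.39 and 2.52), for 12 h against 6 h control wounds (1.90 and 1.73), for the 6 h (4.26 and 4.12) and 12 h response differences (2.12 and 1.98) and the mean of 3 states (2.49 and 2.33). edgeR's prior degrees of freedom for these genes were infinite there, against 1.43 and 1.41 with the filter, so their own spread was not used. DESeq2 newly passed both at 6 h (4.61 and 4.40), in 6 h control wounds against day 30 (2.31 and 2.44) and for the mean of 3 states (2.49 and 2.32). With the compared groups alone, 12 h newly passed (2.48 and 2.26) and 6 h post-imiquimod wounds against day 30 were lost (6.62 and 6.61). Without both day 30 libraries with Y-linked reads, day 30 turned (-0.59 and -0.52), 6 h control wounds against day 30 newly passed (3.68 and 4.17), and the day 6 effect against the 12 h control wound response was lost (5.20 and 5.15).

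With 1 library left out, where a group of 1 is assumed to vary like the others, changes ran from 5.28 to 7.39 and 5.23 to 7.77 for that last comparison, from -1.94 to 1.73 and -2.22 to 2.01 at day 30, from 3.44 to 5.55 and 3.34 to 5.87 for 12 h control wounds against day 30, from 1.17 to 3.09 and 1.02 to 2.90 for 12 h against 6 h control wounds, and from -0.97 to 1.12 and -1.17 to 1.08 for 12 h against 6 h post-imiquimod wounds. The log2 ratio difference turned to -0.0053 without 6 h wounds and ran from 0.011 to 0.116 without 1 library, and for wounded against unwounded from -0.193 to 0.018. The cause of these changes was not tested.

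Numbers of genes past the threshold, with group means, the block, DESeq2, the compared groups alone and no filter, were 2, 5, 20, 0 and 151 at day 30, 6, 28, 131, 0 and 441 at 6 h, 0, 20, 27, 8 and 182 at 12 h, 35, 105, 164, 31 and 532 for the mean of 3 states, 0, 3, 27, 0 and 255 for the 6 h and 0, 0, 1, 0 and 69 for the 12 h response difference, 112, 1296, 686, 316 and 980 for 12 h against 6 h control wounds and 30, 635, 344, 120 and 624 for post-imiquimod wounds. For the day 6 effect they were 3894, 5927, 4485, 1802 and 4234 against day 30 and 1936, 4232, 2941, 1046 and 2860 against the 12 h control response, and for 6 h control wounds against day 30 6003 and 3475 alone. With 22 to 57 reads of S100a8 in both day 6 control libraries and in both day 30 libraries numbered 2, depth limits the ratios there most.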
